A study of Mus musculus with 18 samples.

Results

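The family of miR-148 and miR-152 is made of 3 hairpins, Mir148a, Mir148b and Mir152, each of which gives a 5p and a 3p mature arm. All 6 arms (mmu-miR-148a-5p, mmu-miR-148a-3p, mmu-miR-148b-5p, mmu-miR-148b-3p, mmu-miR-152-5p and mmu-miR-152-3p, written below without the species prefix) were present among the 1412 mature miRNAs counted in mouse femoral condyle cartilage, and all 6 were kept by the filter on low counts, which left 428 miRNAs for testing. The members were chosen by name, over all groups, with earlier results of these data known. The study asked how cartilage miRNAs respond to rupture of the anterior cruciate ligament (ACL), and made 18 small RNA libraries. Mice were 12-week-old male C57bl6 animals, and a single 12 N load on the right knee ruptured the ligament. The sampled tissue was articular cartilage down to the tidemark, its border with calcified cartilage, from the injured knee at day 1 (3 libraries) and day 7 (3 libraries), from the contralateral left knee of injured mice at day 1 (3 libraries) and day 7 (3 libraries), and from naïve mice without injury, labelled day 7 (6 libraries). No mouse carried a transgene, and the contralateral knee belongs to an injured animal, so it is not an untouched knee. Each library is a pool. The study describes 6 mice for day 1 and 12 for day 7 in pools of 2 and 4. It describes 6 naïve mice whose left and right knees were pooled apart, with 2 knees to a library. By this scheme left and right naïve libraries share mice, so the 6 naïve libraries are not 6 independent pools of mice. The series description gives 4 mice for each pool. Which libraries share animals is not in the labels, so that p-values measure the spread between libraries treated as independent.

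The arms of a hairpin are cut from opposite strands of 1 stem, and the arm loaded into Argonaute guides it to messenger RNAs that pair with the seed, bases 2 to 8 of the miRNA. In this family the 3p arms are the usual guides. They are known for repressing Dnmt1, the maintenance DNA methyltransferase. In osteoarthritic chondrocytes, raised miR-148a has been linked to production of hyaline matrix.

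The 6 mature sequences are shown because the seeds set which members can share targets. They are the RefSeq sequences on GRCm38.p6, written 5′ to 3′, with the seed in capitals.
miR-148a-3p: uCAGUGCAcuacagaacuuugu
miR-148b-3p: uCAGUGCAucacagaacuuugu
miR-152-3p: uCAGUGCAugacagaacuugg
miR-148a-5p: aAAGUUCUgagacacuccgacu
miR-148b-5p: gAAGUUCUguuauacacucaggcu
miR-152-5p: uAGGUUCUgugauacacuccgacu
The 3p arms shared the seed CAGUGCA, and no other of the 1679 mature mouse sequences searched had it at bases 2 to 8. In 7 further sequences, among them miR-17-5p and miR-106b-5p, the same letters stood at other positions. The 5p arms of miR-148a and miR-148b shared the seed AAGUUCU, and miR-152-5p had a seed found in no other sequence of the search. Counting from 1 at the 5′ end, miR-148b-3p differed from miR-148a-3p by C9U and U10C. miR-152-3p differed from miR-148a-3p by C9U, U10G and U20G, and was 1 base shorter, with 21 bases against 22. From miR-148b-3p it differed by C10G and U20G. With so few differences, reads of 1 member carrying a sequencing or synthesis error could be counted under another, which was not tested, and no member had the same counts in every library as another miRNA.

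The hairpins lie on 3 chromosomes. Mir148a is on the minus strand at chr6:51269812-51269910 (GRCm38), overlaps no other annotated gene, and has Nfe2l3 as its nearest protein-coding gene, 162760 bases away. Mir148b is at chr15:103285125-103285221, in an intron of Copz1, and Mir152 is at chr11:96850393-96850465, in an intron of Copz2. Copz1 and Copz2 encode the zeta subunits of the COPI coat, which carries vesicles from the Golgi to the endoplasmic reticulum, and both host genes are on the same strand as their hairpin.

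Libraries held between 758388 and 4088852 counts. Cartilage miRNAs (miR-140 and miR-455, 4 of 4 arms) were counted in every library, with a summed level of 5029 to 10499 CPM (counts scaled by library size and TMM factor), and their summed level overlapped between all groups. Skeletal muscle miRNAs were also present in every library: 5 of 6 listed passed the filter, and together they made up 6.91% to 25.8% of a library's counts, with miR-1a-3p the most abundant miRNA by mean share (13.7%). The liver miRNA miR-122-5p had at most 11 counts in a library.

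miR-148a-3p was the second most abundant miRNA of this cartilage. It took a mean of 11.8% of a library's counts (SD 5.55, n = 18), ranked first in 6 of the 18 libraries and never lower than place 6. Together the 6 members took 3.79% (95% exact binomial interval 3.76 to 3.82) of the counts in day 7 contralateral replicate 1 and 22.1% (22.0 to 22.2) in naïve replicate 6, the lowest and the highest share. These intervals cover counting error only. Within the family, miR-148a-3p held 97.2% of the counts summed over libraries. Reads were of whole mature miRNAs, so no correction for length applies, but adapters join different miRNAs with different efficiency, and shares of counts are not shares of molecules.

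The other members were far below it. mmu-miR-148b-3p had a mean of 2012 CPM over the 18 libraries and mmu-miR-152-3p 1498 CPM, which gave mean shares of 0.198% and 0.148% of counts and places 55 and 63. The 5p arms, the usual passenger strands, were lower: 133 CPM for miR-148a-5p, 118 CPM for miR-152-5p and 34.8 CPM for miR-148b-5p. The ranges of miR-148b-3p and miR-152-3p overlapped across libraries, as did those of miR-148a-5p and miR-152-5p. miR-148b-5p was the lowest member in every library, and its smallest count was 18, in day 7 injured replicate 1, which had the fewest reads. That count gives 23.7 CPM of the unscaled library total, with a 95% exact binomial interval of 14.1 to 37.5.

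**Figure D1:**
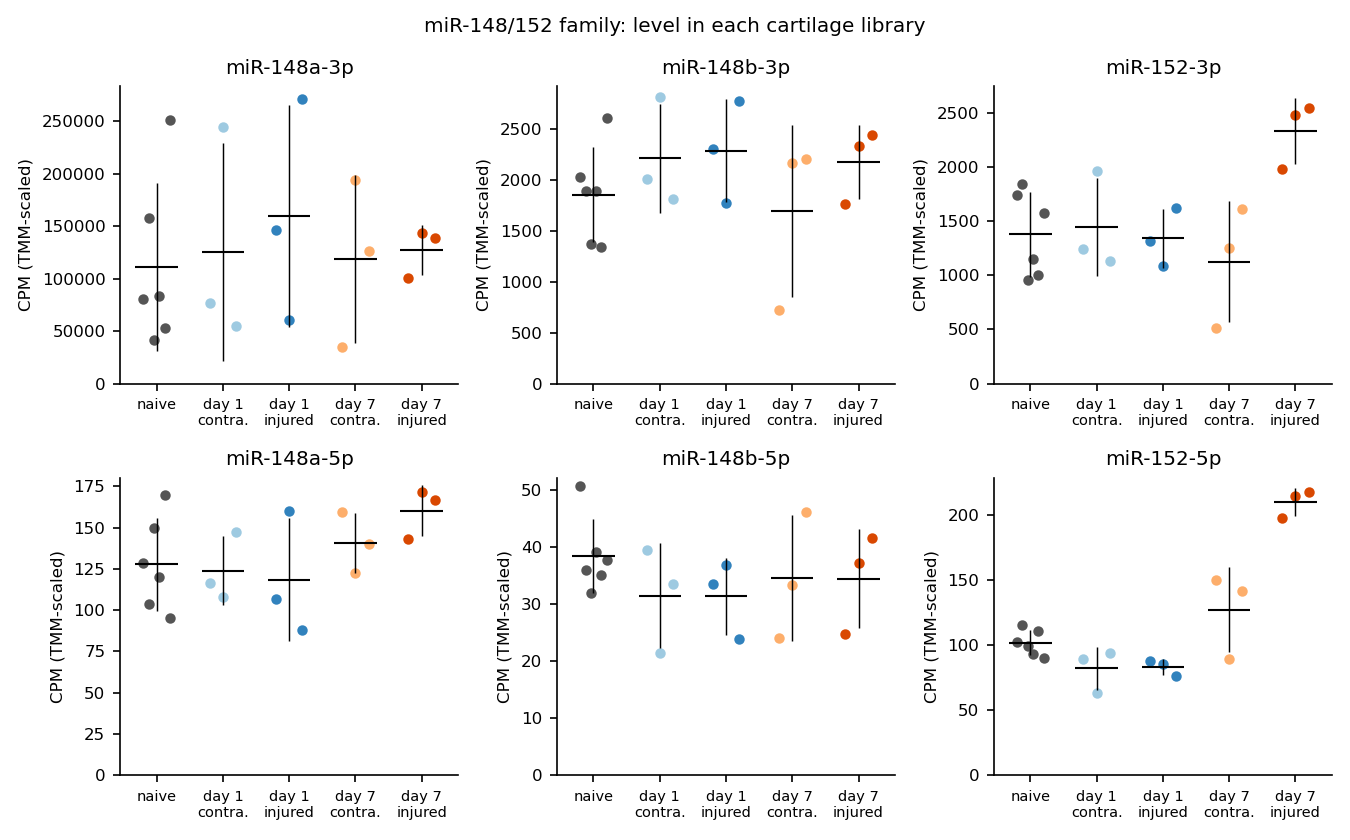
TMM-scaled CPM of each member in each library (points), by group, with the group mean (horizontal line) and SD (vertical line); 6 naïve libraries and 3 in each other group, with the y axis starting at 0. miR-152-5p lies between 198 and 218 CPM in the 3 day 7 injured libraries and at or under 150 CPM in the other 15, while miR-148a-3p spreads from 35116 to 271387 CPM with all groups overlapping.

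The level of miR-148a-3p differed more between libraries of the same group than between groups. In naïve cartilage it ranged from 41454 to 251151 CPM, with a median of 82050. The day 1 contralateral libraries had 77228, 245026 and 54970 CPM, and the day 1 injured libraries 146829, 61027 and 271387 CPM. At day 7, contralateral cartilage had 35116, 194254 and 126806 CPM and injured cartilage 100405, 144027 and 138782 CPM. Every group overlapped every other, and the day 7 injured libraries lay closest together. Around the group means, the SD of its log2 CPM was 1.00, place 4 of 428 miRNAs (1 being the widest) and the widest of the 20 most abundant, against a median of 0.457 over all 428 and 0.402 over those 20. The SD was 0.474 for miR-148b-3p and 0.479 for miR-152-3p, near the median of all miRNAs, and 0.223 for miR-152-5p, place 407.

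This spread moved with the number of reads in the library. Across the 18 libraries, log2 CPM of miR-148a-3p had a Pearson correlation of 0.73 and a Spearman correlation of 0.75 with the log2 library total, and the Spearman value was 0.82 within groups. Without the 2 libraries whose totals were farthest from the median, the Pearson value was 0.81. Its Spearman value was place 7 of the 428 miRNAs, and that of miR-148b-3p (0.80) place 3. For miR-152-3p it was 0.54, for miR-152-5p -0.14, for miR-148b-5p 0.06 and for miR-148a-5p -0.40. Within groups the values were 0.79 for miR-148b-3p, 0.75 for miR-152-3p, -0.38 for miR-152-5p, 0.08 for miR-148b-5p and -0.61 for miR-148a-5p, so that miR-152-3p followed depth within groups nearly as closely as miR-148a-3p. The correlations are descriptions over all groups, picked after the values were seen, with no p-value, and CPM and the total come from the same counts. Whether depth, the amount of RNA or something that moves with them sets the level of miR-148a-3p was not tested.

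Over all 18 libraries the arms of miR-148a tended to go opposite ways, but not among the day 7 injured libraries. miR-148a-5p was lowest, at 87.9 CPM, in day 1 injured replicate 3, the library with the highest miR-148a-3p. In naïve replicate 6, which had the second highest miR-148a-3p, it had 95.2 CPM, against 170 CPM in naïve replicate 5. The Spearman correlation of the arms was -0.66 over 18 libraries and -0.81 within groups, and the Pearson correlation -0.67, or -0.52 without the 2 libraries with miR-148a-5p farthest from its median. As a consequence the ratio of 3p to 5p counts was not fixed: it ran from 220 in day 7 contralateral replicate 1 to 3078 in day 1 injured replicate 3. In the day 7 injured libraries it was 699, 839 and 832. Within that group both arms were lowest in replicate 1 and highest in replicate 2, with miR-148a-5p at 143, 172 and 167 CPM. Both arms come from 1 hairpin, and the counts do not tell whether cutting, loading, decay or library preparation differed.

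**Figure D2:**
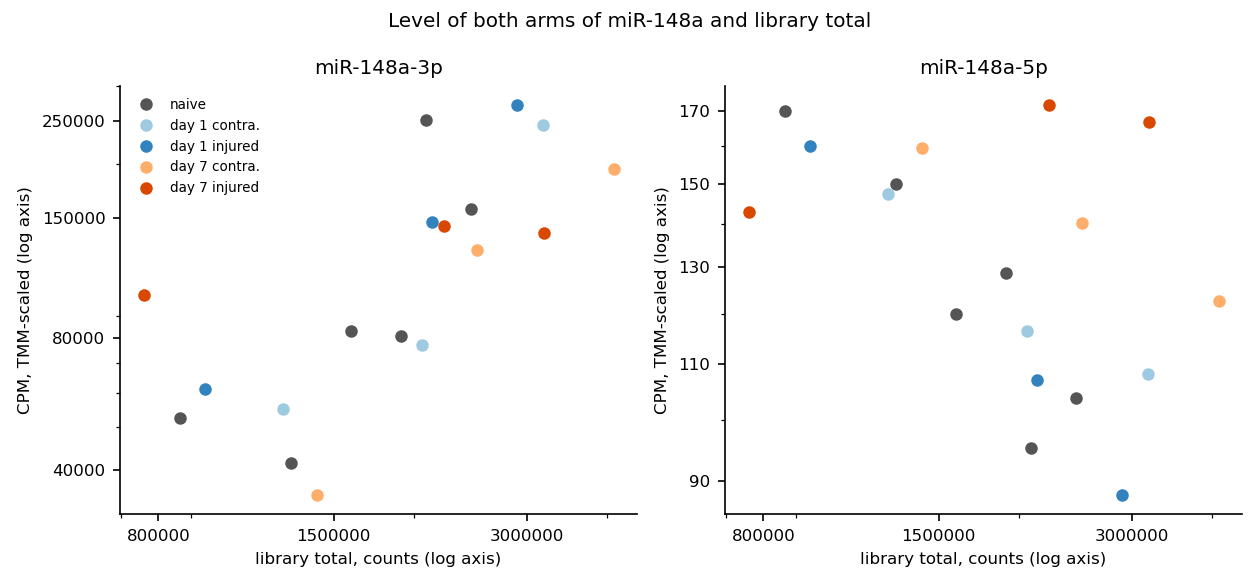
TMM-scaled CPM of miR-148a-3p (left) and miR-148a-5p (right) against the library total in counts, both on log axes, with 1 point per library coloured by group (18 libraries). miR-148a-3p is higher in larger libraries (Spearman 0.75) and miR-148a-5p lower (Spearman -0.40), except that in the 3 day 7 injured libraries miR-148a-5p is lowest in the smallest one, at 143 CPM.

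The 3p arms of the family moved together, and the miRNAs most like them are given as descriptions over the 18 libraries, among the 173 tested miRNAs that averaged 100 CPM or more. The Spearman correlation of log2 CPM was 0.85 between miR-148a-3p and miR-148b-3p, 0.67 between miR-148a-3p and miR-152-3p, and 0.66 between miR-148b-3p and miR-152-3p. Within groups the same pairs had 0.89, 0.85 and 0.88. miR-148a-3p was most like miR-218-5p (0.95), miR-340-3p (0.95) and miR-24-2-5p (0.91), and least like miR-423-5p (-0.71), miR-22-3p (-0.69) and its own 5p arm. miR-148b-3p was most like miR-24-2-5p (0.86), miR-148a-3p and miR-340-3p (0.80), and least like miR-423-5p (-0.75), miR-145a-5p (-0.65) and miR-221-3p (-0.63). Over all groups the miRNAs nearest to miR-152-3p were miR-199a-3p and miR-199b-3p, which have identical counts and are 1 measurement (0.88), and miR-27b-3p (0.82). It was least like miR-92b-3p (-0.92), miR-200c-3p (-0.89) and miR-1198-5p (-0.85). The points share library depth and scaling.

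In injured cartilage at day 7 both arms of miR-152 stood above all other libraries, and the arms of miR-148a and miR-148b did not. miR-152-5p had 198, 215 and 218 CPM in the day 7 injured libraries. In naïve cartilage it ranged from 90.2 to 115 CPM with a median of 101, in day 1 contralateral cartilage it had 89.3, 63.0 and 93.8 CPM, in day 1 injured cartilage 87.7, 85.4 and 75.8 CPM, and in day 7 contralateral cartilage 150, 89.5 and 142 CPM. The 3 day 7 injured libraries thus lay above each of the other 15, whose highest value was 150 CPM. For miR-152-3p they had 1976, 2477 and 2539 CPM, and the highest of the other 15 was 1959 CPM, in day 1 contralateral replicate 2. Its naïve values ran from 954 to 1838 CPM with a median of 1361. The day 7 contralateral libraries had 514, 1249 and 1614 CPM, and the day 1 injured libraries 1314, 1084 and 1618 CPM. The gap between the lowest injured and the highest other library was narrow for miR-152-3p and wide for miR-152-5p. Of the 428 miRNAs tested, 12.9% lay above all 15 other libraries in the same way.

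Compared with naïve cartilage, miR-152-5p rose 2.07-fold at day 7 in injured cartilage (log2 fold change 1.05 ± 0.21 SE, with a limma-voom adjusted p of 0.000726). It was 210 ± 10.7 CPM (SD, n = 3) against 102 ± 9.79 CPM (SD, n = 6), and it passed the test under each of the 29 alternatives tried. miR-152-3p was 2331 ± 309 CPM against 1377 ± 390 CPM, with a log2 fold change of 0.80 (SE 0.31, 95% interval 0.17 to 1.44) that did not pass after adjustment (limma adjusted p = 0.0816). It passed under 7 of the 29 alternatives, where the adjusted p over all of them ran from 0.00494 to 0.272. Of the 6 members, 1 was called, in a comparison in which 18.2% of miRNAs were called and 14.5% were called higher. Both arms of miR-152, 2 of 6 members, did not overlap with naïve libraries and were higher, as were 15.4% of all miRNAs. The median log2 fold change was 0.41 over the members and -0.0028 over all 428 miRNAs.

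The other members had values in both directions that did not pass. For miR-148a-3p the log2 fold change against naïve cartilage was 0.47, with a 95% interval of -0.77 to 1.70, which spans both a fall and a rise. miR-148b-3p had 0.27 (-0.38 to 0.91), miR-148a-5p 0.36 (-0.13 to 0.84) and miR-148b-5p -0.12 (-0.68 to 0.44). The adjusted p was between 0.372 and 0.804 for these 4 members (limma). The most abundant member had the widest interval of the family, and the scarce miR-152-5p the narrowest.

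Against the contralateral knee at day 7, both arms of miR-152 rose. The log2 fold change was 0.77 for miR-152-5p (SE 0.24, 1.70-fold, limma adjusted p = 0.0320) and 1.18 for miR-152-3p (SE 0.35, 2.27-fold, limma adjusted p = 0.0276), and for each all 3 injured libraries were above all 3 contralateral ones. In this comparison 14.7% of miRNAs were called, 13.8% were called higher, and 17.5% did not overlap and were higher. All 6 members had a positive value here, with a median of 0.44 against -0.05 over all miRNAs, but the other 4 did not pass: 0.39 for miR-148a-3p (-1.03 to 1.80), 0.50 for miR-148b-3p (-0.24 to 1.23), 0.20 for miR-148a-5p and 0.05 for miR-148b-5p.

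Part of these last calls was lost when single libraries were left out. Day 7 contralateral replicate 1 had the lowest miR-152-3p, the lowest miR-148b-3p and miR-148a-3p and the highest share of skeletal muscle miRNAs, and without it miR-152-3p had a log2 fold change of 0.80 and a limma adjusted p of 0.0915. miR-152-5p had an adjusted p of 0.151 without day 7 contralateral replicate 2 (limma). Without day 7 injured replicate 2 or 3 neither arm passed, with log2 fold changes between 0.77 and 1.17. With all libraries they were 0.77 for miR-152-5p and 1.18 for miR-152-3p, and these fits also have fewer injured libraries. With only the libraries of the 2 groups in the fit, the log2 fold changes were about as large, 0.78 for miR-152-5p and 1.19 for miR-152-3p, and the adjusted p was 0.140 and 0.101 (limma).

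Between day 1 and day 7 after injury, miR-152-5p rose 2.53-fold (log2 fold change 1.34, SE 0.24, limma adjusted p = 0.000525), the only member called where 15.7% of miRNAs were called and 12.1% called higher. It passed under each of the 29 alternatives. The 3p arm, miR-152-3p, had 0.82 (SE 0.35, 95% interval 0.07 to 1.56, limma adjusted p = 0.133), and its groups did not overlap, as in 18.7% of miRNAs. miR-148a-5p had 0.49 (-0.07 to 1.05). The day 7 injured and day 1 injured libraries came from different mice.

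At day 1 no member was called. In injured versus naïve cartilage the percentage of all miRNAs called was 0, with 8 miRNAs at an unadjusted p under 0.05 and no call by edgeR or DESeq2. The adjusted p of the members was 0.992 or above (limma). The 3 day 1 injured libraries had 75.8 to 87.7 CPM of miR-152-5p, all below the lowest naïve library at 90.2 CPM, a pattern seen in 0.935% of miRNAs, and the log2 fold change was -0.29 with an interval of -0.73 to 0.15. Injured versus contralateral knees at day 1 gave 0 calls over all miRNAs, 8 at an unadjusted p under 0.05, and none by edgeR or DESeq2. In the comparisons of contralateral with naïve cartilage, none of the 428 miRNAs was called by limma at either day (0), with 23 at an unadjusted p under 0.05 at day 7 and 4 at day 1. edgeR called none at either day, and DESeq2 called 1 miRNA at day 7, not a member, and none at day 1.

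Whether the injury effect, injured minus contralateral, was larger at day 7 than at day 1 was tested directly. In this test 6.78% of miRNAs were called and no member was. The difference of the effects was 1.27 on the log2 scale for miR-152-3p (SE 0.50, 95% interval 0.22 to 2.32, limma adjusted p = 0.174) and 0.73 for miR-152-5p (SE 0.34, 95% interval 0.02 to 1.44, limma adjusted p = 0.286). With the log10 library total as a covariate, added after the data were seen, miR-152-3p passed this test (limma adjusted p = 0.0224).

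**Figure D3:**
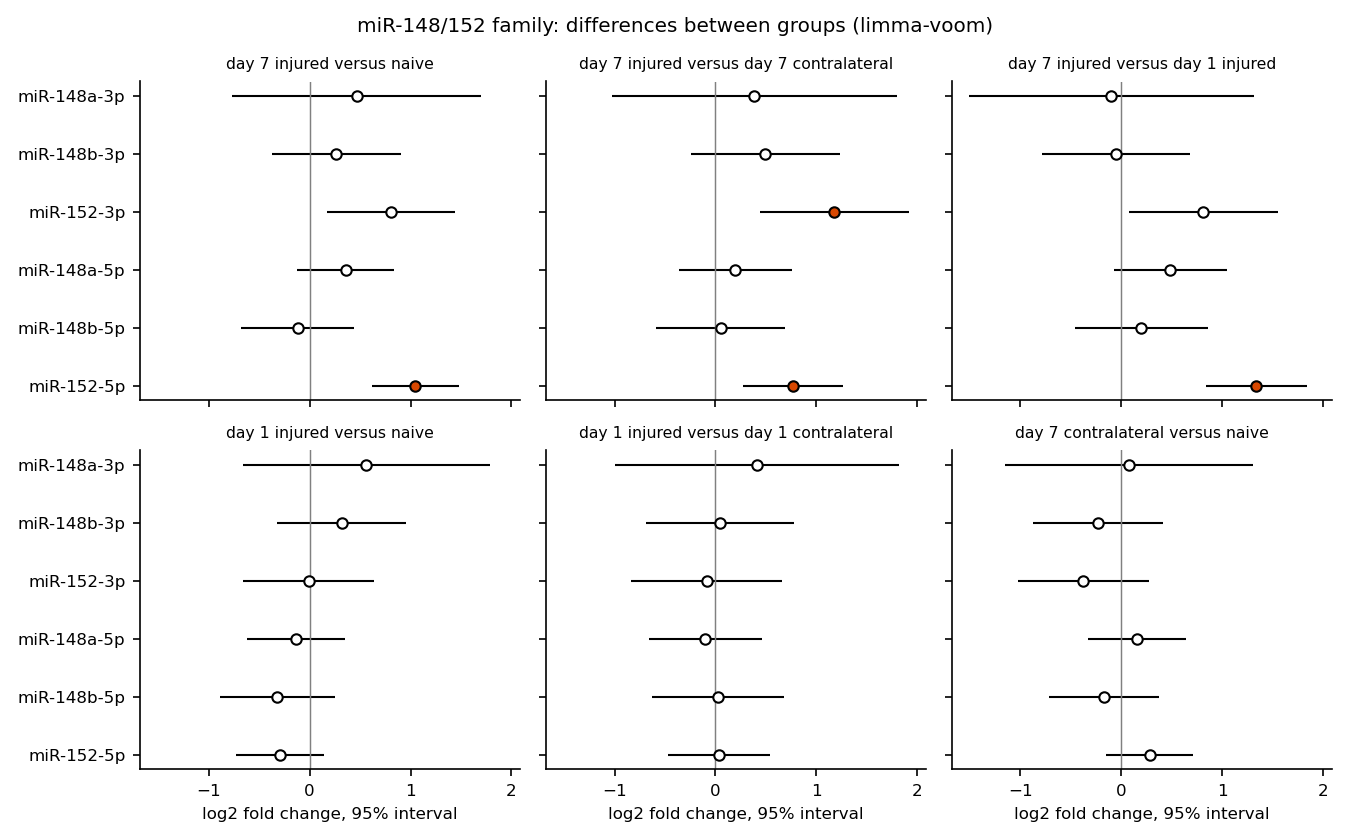
Log2 fold change of each member with its 95% interval in 6 comparisons of groups (limma-voom, 18 libraries); filled points passed an adjusted p of 0.05 over 428 miRNAs. miR-152-5p is filled in all 3 comparisons with day 7 injured cartilage, miR-152-3p against the day 7 contralateral knee, and no point is filled in the lower row.

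The balance of miR-148b-3p and miR-152-3p was lowest in injured cartilage at day 7. These arms have the same seed and near-equal levels, and a ratio within a library needs no scaling between libraries. The ratio of miR-148b-3p to miR-152-3p counts was 0.890, 0.940 and 0.959 in the day 7 injured libraries, so that miR-152-3p was the larger of the pair in all 3. In each of the other 15 libraries miR-148b-3p was the larger, with ratios from 1.03 in naïve replicate 2 to 1.75 in day 1 injured replicate 1. The level of miR-152-3p alone also lay above these 15 libraries, as did 12.9% of the 428 miRNAs tested, so the ratio is not a separate finding. How often ratios of other miRNA pairs part the libraries in this way was not computed. The other ratios of family members overlapped. The mean was 0.930 ± 0.036 (SD, n = 3) for day 7 injured libraries against 1.38 ± 0.25 (SD, n = 6) for naïve ones, and the day 7 contralateral libraries had 1.40, 1.73 and 1.36. On the log2 scale the day 7 injured libraries were 0.55 lower than naïve ones (two-sided exact permutation p = 0.0357, where the smallest p for 3 against 6 is 0.0119). The permutation treats the 6 naïve libraries as independent, though by the study's scheme they share mice. Adjusted over the 24 ratio tests made, this exact permutation p was 0.429, which does not pass. With 24 tests, a single ratio at the smallest p of 0.0119 could not pass either, so the adjusted test cannot decide. Against the day 7 contralateral libraries the difference was -0.68 (exact permutation p = 0.1, the smallest that 3 against 3 can give).

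The ratio of miR-148a-3p to miR-152-3p was 50.8, 58.1 and 54.7 in day 7 injured libraries. In day 7 contralateral libraries it was 68.2, 156 and 78.6, all higher (exact permutation p = 0.1, adjusted 0.429), while the naïve range of 43.5 to 159 took in all injured values. None of the 24 ratio tests passed after adjustment. A single ratio could not have passed with so few libraries, so this does not show that the ratios were unchanged. Over the 3 arms with the shared seed, the summed level is that of miR-148a-3p within a few percent, because it holds 96.1% to 96.5% of the family's counts in each day 7 injured library.

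**Figure D4:**
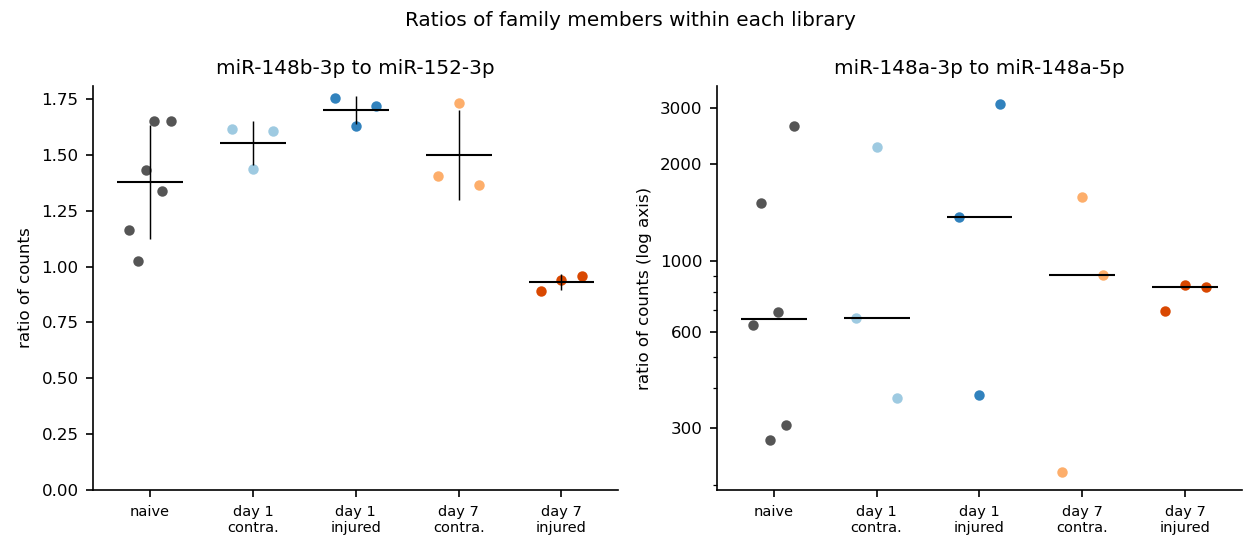
Ratio of miR-148b-3p to miR-152-3p counts (left, linear axis from 0, with group mean and SD) and of miR-148a-3p to miR-148a-5p counts (right, log axis, with group median) in each of 18 libraries. On the left the 3 day 7 injured libraries lie under 1 and the other 15 above it; on the right all groups overlap and the day 7 injured libraries lie close together, between 699 and 839.

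Of the marker miRNAs of other cell types, 2 were called in day 7 injured versus naïve cartilage, both lower, where 18.2% of all 428 miRNAs were called and 3.74% were called lower. The skeletal muscle list summed to 69623 to 133932 CPM in day 7 injured and 67506 to 198894 CPM in naïve libraries, with 0 of 5 members called and a median log2 fold change of -0.53. The erythroid list (miR-451a, miR-144 and miR-486a-5p) was at 3081 to 4150 CPM in day 7 injured cartilage, below the naïve range of 5986 to 7928 CPM. Of its 4 members 1 was called, miR-486a-5p, lower. Most of the erythroid sum was miR-486a-5p, with a mean of 2150 CPM in day 7 injured and 4979 CPM in naïve libraries. The other erythroid members overlapped naïve libraries and were not called. Their log2 fold changes were -0.25 for miR-451a, -0.01 for miR-144-3p and -0.46 for miR-144-5p. Of the 6 leukocyte miRNAs 1 was called, miR-150-5p, lower, and their summed level was 8002 to 9478 CPM against 6447 to 10851 CPM. The 4 vascular miRNAs had none called and 74002 to 80724 CPM against 48221 to 83024 CPM. The median log2 fold change was -0.36 for the erythroid, -0.07 for the leukocyte and 0.18 for the vascular list, and 0.20 for the cartilage list, which had 0 of 4 called. Against the day 7 contralateral knee 1 marker was called, miR-486a-5p, lower by 0.89 on the log2 scale (limma adjusted p = 0.0297), where 0.935% of miRNAs were called lower. The skeletal muscle sum of injured libraries lay below that of all contralateral ones, at 136694 to 249856 CPM. Its list median was -0.82, with 0 of 5 members called. The erythroid sum also lay below the contralateral range of 5464 to 8177 CPM, with a median of -0.81. The leukocyte, vascular and cartilage sums overlapped, with medians of -0.21, -0.05 and 0.38. Against day 1 injured cartilage, 3.5% of miRNAs were called lower and 12.1% higher. There miR-486a-5p fell by 1.43 (limma adjusted p = 0.000652) and miR-150-5p fell by 1.53 (limma adjusted p = 0.0123). The cartilage miRNA miR-455-5p rose by 1.01 (limma adjusted p = 0.0277). The list medians were -0.55 for the skeletal muscle, -0.34 for the erythroid, 0.08 for the leukocyte, 0.15 for the vascular and 0.25 for the cartilage list. Other leukocyte miRNAs ran from -0.59 (miR-223-3p) to 0.68 (miR-142a-3p), none called. The other cartilage arms ran from -0.27 (miR-455-3p) to 0.47 (miR-140-5p), none called. The part of these markers in the miR-152 results was not tested. In bulk cartilage, fewer cells of a type and less RNA per cell cannot be told apart. Scaling without the muscle list left miR-152-5p called and gave miR-152-3p a log2 fold change of 0.87 against naïve cartilage (limma adjusted p = 0.0466).

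Lists of miRNAs known to act on DNA methyltransferases, or with an overlapping seed, are given for comparison. Of miR-29a-3p, miR-29b-3p, miR-29c-3p and miR-143-3p, which are known to target de novo DNA methyltransferases, 0 of 4 were called in day 7 injured versus naïve cartilage, which with 18.2% of all miRNAs called says little about so short a list. Their log2 fold changes were -0.21, 0.13, 0.05 and 0.19. The family of miR-130 and miR-301 is of interest because its seed is shifted by 1 base from that of the 3p arms, so that AGUGCA stands at bases 2 to 7, in capitals here.
miR-130a-3p: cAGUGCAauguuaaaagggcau
miR-130b-3p: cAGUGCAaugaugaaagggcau
Of the 1679 mature sequences, 7 (0.417%) had these 6 bases in that place. The listed arms miR-130a-3p and miR-130b-3p passed the filter, with means of 24.5 and 8.52 CPM, and 2 others of the list did not. Their log2 fold changes in day 7 injured versus naïve cartilage were -0.25 and -0.28, and neither was called.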

How the data were processed

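Small RNA was measured in 18 libraries of pooled mouse femoral condyle cartilage in 5 groups, taken from the treatment label. Per the labels and the study's methods, RNA was prepared with TRIzol and a mirVana kit and libraries with a NEBNext small RNA kit. The authors trimmed reads (Trim Galore 0.6.6), aligned them with Bowtie 1.3.0 to mature miRBase sequences and counted them with SAMtools 1.12. The deposited values are raw read counts with no normalisation, and how reads matching several miRNAs were counted is not stated. Library rows were matched to samples by library number, since the prefix before it differs between table and titles. Replicates were numbered in accession order.

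Counts were analysed in R 4.3.3. filterByExpr of edgeR 4.0.16 (minimum count 10, minimum total 15) kept 428 of 1412 miRNAs, TMM scaled the libraries, and limma 3.58.1 (voom, eBayes) estimated a mean for each of the 5 groups from all 18 libraries. The study also used limma-voom, with a term for shared pools, which the labels do not give. The 8 comparisons were adjusted separately (Benjamini-Hochberg, threshold 0.05, all 428 miRNAs). Log2 CPM used a prior count of 2. Ratios used 0.5 added to each count and exact permutation tests, 6 ratios in 4 comparisons. The text names the 6 members, marker and comparison lists, and for each 3p arm the 3 most and 3 least like miRNAs of at least 100 CPM. The members and lists were chosen with earlier results of these data known. Alternatives were other scalings, filters, edgeR's quasi-likelihood test, DESeq2 1.42.0, quality weights, only the compared groups, and leaving out each library. The fit was tested on simulated data for day 7 injured versus naïve cartilage. In the simulation 100 miRNAs were changed 2-fold and 100 were changed 4-fold, as many up as down, in independent libraries. It recovered 54% of 2-fold and 96% of 4-fold changes, with 5 false calls among 155. The real comparison called 62 miRNAs higher and 16 lower, and naïve libraries share mice by the study's scheme, so these rates need not carry over. Of 10 simulated sets without a change, 1 had a call. Changes near 2-fold can therefore be missed. Sequences, hairpin positions and host genes came from RefSeq (GRCm38.p6) and GENCODE (all 6 members found). Totals of 758388 to 4088852 counts set the precision, and PCR copies are not independent molecules.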

Additional observations from a re-analysis of the deposited data

How the results depend on the processing

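Each comparison was recomputed under 29 alternatives, 18 of which left out 1 library. Against naïve cartilage at day 7, 1 member was called. The number was 2 when the skeletal muscle list was left out of the scaling, when only the compared groups were fitted, and with the log10 library total as a covariate (an alternative chosen after seeing the data), and 3 with quality weights, where miR-148a-5p also passed. It was between 1 and 2 with 1 library left out: 2 without naïve replicate 1, day 7 contralateral replicate 1 or day 7 contralateral replicate 3, miR-152-3p being the added member. Against the day 7 contralateral knee 2 members were called. The number was 1 with library totals only and with every miRNA of at least 1 count kept (miR-152-5p lost, with log2 fold changes of 0.76 and 0.74 against 0.77), 0 with only the compared groups, and between 0 and 2 with 1 library left out. Against day 1 injured cartilage 1 member was called, with 3 under quality weights, 2 with only the compared groups, 2 with the library total as a covariate, and 1 to 2 with 1 library left out. The difference of the injury effects had 0 members called, and 1, miR-152-3p, with the library total as a covariate. The other 4 comparisons had 0 members called in every alternative. The causes were not tested.

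The log2 fold changes of both arms of miR-152 kept their sign in every alternative. Small differences that were not called turned sign. Against naïve cartilage miR-148b-5p ran from -0.25 to 0.11 with 1 library left out. Against the day 7 contralateral knee miR-148a-3p was -0.062 with quality weights and ran from -0.23 to 0.94 with 1 library left out, and miR-148b-5p was -0.0085 with every miRNA kept and -0.14 with quality weights, and ran from -0.071 to 0.29. Of the 31 member differences not given one by one, none was called in any alternative and 20 turned sign in at least 1. Library totals in place of TMM moved the median log2 fold change of all miRNAs by -0.12 against naïve cartilage at day 7, and leaving the muscle list out of the scaling moved it by 0.14 between the injured groups. Between the injured groups 52 miRNAs were called higher and 15 lower, against 49 and 3 with library totals 58 and 8 without the muscle list, 68 and 41 with quality weights and 53 and 23 with DESeq2. Quality weights raised the number of miRNAs called from 78 to 135 against naïve cartilage and from 67 to 109 between the injured groups. A filter of at least 10 counts in every library, which tests fewer miRNAs, lowered it to 48 against naïve cartilage, from 63 to 38 against the contralateral knee and from 67 to 44 between the injured groups. The ratio of miR-148b-3p to miR-152-3p had log2 differences from -0.63 to -0.49 between day 7 injured and naïve libraries in its alternatives. These only changed the added count or left out 1 library. They could not turn the direction, because the day 7 injured ratios did not overlap the naïve ones.

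No paired analysis was possible because replicate numbers were given in accession order and pair no libraries, and no label says which knees come from the same pool. Low members rest on few reads in the smallest library, which limits miR-148b-5p most.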
